A study of Mus musculus with 15 samples.

Results

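The genes that encode the receptors and ligands of the BAFF, APRIL and CD40 system were followed across cultured mouse B cells of 2 isotypes. They were found by matching their symbols to the gene identifiers of the expression table, and all 7 were among its 51912 genes. Of these, 4 are receptors (Tnfrsf17, which encodes BCMA; Tnfrsf13b, TACI; Tnfrsf13c, the BAFF receptor; and Cd40) and 3 are ligands (Tnfsf13, APRIL; Tnfsf13b, BAFF; and Cd40lg, CD40 ligand). RNA-seq was made from 15 libraries in 5 groups of 3 biological replicates. Wild-type mouse B cells were cultured on the fibroblast feeder line 40LB in medium with 100 ng/ml IL-4, and the bulk culture was taken at day 6 (D6). Cells removed from the feeders spent 2 more days in unstimulated RPMI and were sorted at day 8 into IgE and IgG1 cells, each divided into plasma cells (PC) and cells named iGC in the labels. The labels give all groups the same wild-type genotype and no further treatment, and they give neither the age of the mice nor the markers of the sort. Because the sorted groups differ from D6 in time, feeder contact and sorting together, these cannot be told apart in a comparison with D6.

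BAFF binds BAFF receptor, TACI and, more weakly, BCMA, whereas APRIL binds TACI and BCMA. BAFF receptor supports the survival of mature B cells, BCMA supports long-lived plasma cells, and CD40, engaged by CD40 ligand on helper T cells, drives germinal centre growth and class switching. All of these receptors signal through TRAF adaptors to NF-kB. The 40LB line was built from fibroblasts made to express CD40 ligand and BAFF, so both ligand transcripts can also come from feeder cells.

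Expected counts summed to 17740876 to 54067953 per library, the smallest being IgE iGC replicate 3. The labelled cell types were checked against marker genes. The summed level of 6 plasma cell markers reached 16600 to 19100 CPM (counts scaled to the size of the library with TMM factors) in the IgE PC libraries and 9260 to 13600 in those of IgG1 PC, against 371 to 744 CPM in the iGC and D6 libraries. All 7 B cell markers and all 5 germinal centre markers had counts in every library, which does not separate the groups. The germinal centre markers summed to 664 to 706 CPM in IgE iGC, 521 to 572 in IgG1 iGC and 281 to 313 in D6. In PC they summed to 82.1 to 83.7 CPM (IgE) and 118 to 171 CPM (IgG1). The B cell markers summed to 10400 to 10900 CPM in iGC, 5070 to 5380 in D6 and 4580 to 6100 in PC. Immunoglobulin genes took 19.8% to 21.5% of counts in IgE PC and 15.3% to 21.7% in IgG1 PC, against 1.39% to 1.62% elsewhere. Of 9 T cell markers, Cd28 supplied most of the counts in PC (5812 in IgE PC and 2193 in IgG1 PC), while Cd3e had 1 count in all 15 libraries together. In these bulk samples, fewer cells of a type and less RNA per cell cannot be told apart.

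Sequences upstream of the 3 BAFF and APRIL receptor genes are shown first. From iGC to PC, Tnfrsf17 rose and Tnfrsf13c fell in both isotypes, while the direction for Tnfrsf13b depended on the scaling. The RefSeq promoter table for GRCm38.p6 held 5 of the 7 genes, and the 250 bases before each start are printed 5′ to 3′ on the strand of the gene, with motif matches in capitals. Tnfrsf17 lies on the plus strand of chr16:11313812-11320074, and its window is chr16:11313559-11313808. Tnfrsf13b lies on the plus strand of chr11:61126755-61149372, with the window chr11:61126505-61126754. Tnfrsf13c lies on the minus strand of chr15:82221743-82224369, with the window chr15:82224381-82224630.
Tnfrsf17: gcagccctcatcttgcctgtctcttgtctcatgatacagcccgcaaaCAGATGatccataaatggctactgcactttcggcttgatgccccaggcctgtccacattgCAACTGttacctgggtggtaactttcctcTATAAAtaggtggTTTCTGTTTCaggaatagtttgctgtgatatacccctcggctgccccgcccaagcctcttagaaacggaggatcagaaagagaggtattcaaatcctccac
Tnfrsf13b: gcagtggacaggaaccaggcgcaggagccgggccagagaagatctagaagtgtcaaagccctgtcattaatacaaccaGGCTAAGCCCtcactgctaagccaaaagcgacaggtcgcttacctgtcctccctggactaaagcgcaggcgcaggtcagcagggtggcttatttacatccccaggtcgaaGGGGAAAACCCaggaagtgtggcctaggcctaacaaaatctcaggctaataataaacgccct
Tnfrsf13c: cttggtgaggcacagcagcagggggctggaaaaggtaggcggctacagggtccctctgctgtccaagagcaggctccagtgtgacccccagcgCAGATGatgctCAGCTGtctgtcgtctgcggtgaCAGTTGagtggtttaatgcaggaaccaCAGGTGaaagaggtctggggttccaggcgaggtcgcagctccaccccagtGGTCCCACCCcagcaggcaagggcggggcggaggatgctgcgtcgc

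Both strands were searched for GGGNNNNNCC, the letters of an NF-kB site. An E box was searched as CANNTG and the octamer, a site of POU factors, as ATGCAAAT. Interferon-regulatory factors bind paired motifs, searched as GAAANNGAAA. The TATA box, where transcription machinery assembles, was searched in its common form TATAAA. In the Tnfrsf17 window, capitals mark 2 E boxes, 1 TATA box and 1 paired GAAA match on the opposite strand. The Tnfrsf13b window held 3 NF-kB matches, of which 2 overlap in the capital run nearest the start. The Tnfrsf13c window held 4 E boxes and 1 NF-kB match. Among the 32851 windows of the same length in the table, 45.8% held the NF-kB letters, 66.2% an E box, 12.4% a TATA box, 2.98% the paired GAAA and 1.6% the octamer. These matches describe letters only. Positions of genes are from GENCODE vM21 on GRCm38, in which Tnfrsf13b and Tnfsf13b each overlap a predicted gene on the opposite strand (Gm12269 and Gm44789), whose reads could not be told apart if counting ignored strand.

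Of the 7 genes, BCMA transcript separated the groups most widely. Tnfrsf17 had 267, 261 and 261 counts in the IgE PC libraries, or 7.75, 8.24 and 9.10 CPM. The IgG1 PC libraries had 151, 165 and 164 counts (5.28, 3.18 and 3.54 CPM), and the IgE iGC libraries had 19, 17 and 10 counts (0.432, 0.472 and 0.517 CPM). In IgG1 iGC it had 3, 1 and 3 counts, and in D6 it had 1, 0 and 0, where a count of 0 allows up to 0.0711 and 0.0761 CPM. The order of the means was IgE PC, IgG1 PC, IgE iGC, IgG1 iGC and D6. The first 3 groups did not overlap with the next in order, while the limits of the D6 zeros lie within the IgG1 iGC range of 0.0268 to 0.0869 CPM, so these 2 groups were not separated at this depth.

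Tnfrsf17 rose from iGC to PC in both isotypes, with a log2 fold change of 4.15 (SE 0.26, adjusted p = 1.09e-09) in IgE and 5.92 (SE 0.34, adjusted p = 1.19e-09) in IgG1. All adjusted p-values here and below are from edgeR's quasi-likelihood test with Benjamini-Hochberg adjustment over the 15692 genes tested, with a threshold of 0.05. From summed counts, these steps are ratios of 18 (exact Poisson 95% interval 13.3 to 24.8) in IgE and 60.9 (29.3 to 152) in IgG1, intervals that cover counting error only. Between isotypes it was higher in IgE PC than in IgG1 PC by 1.07 on the log2 scale (SE 0.21, adjusted p = 0.000453), a ratio of 2.2 (1.96 to 2.47). It was also higher in IgE iGC than in IgG1 iGC by 2.84 (SE 0.43, adjusted p = 0.00107), a ratio of 7.45 (3.34 to 19.5). The step from iGC to PC differed between isotypes by -1.77 (SE 0.49, adjusted p = 0.00945), the smaller step being in IgE. That difference rests on 7 counts in IgG1 iGC and had a value of 0.013 (adjusted p = 0.956) with limma on log2(TPM + 1), where TPM is a level scaled for gene length.

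The summed plasma cell markers were 649 to 744 CPM in IgE iGC and 371 to 392 CPM in IgG1 iGC. Most of that gap came from Jchain, with means of 402.9 and 150.1 CPM, while Irf4 was nearly level at 99.76 and 92.82 CPM. The mean level in IgE iGC was 5.66% of that in IgE PC for Tnfrsf17, 0.667% for Sdc1 (CD138), 0.84% for Bhlha15 (a secretory cell transcription factor), 2.62% for Prdm1 (Blimp-1), 3.19% for Jchain, 4.44% for Irf4 and 9.27% for Xbp1. In IgG1 iGC the mean was 1.56% of the IgG1 PC level for Tnfrsf17, 0.83% for Sdc1, 0.415% for Bhlha15, 2.01% for Prdm1, 2.09% for Jchain, 6.91% for Irf4 and 7.09% for Xbp1. The part of plasma cell RNA in the iGC values was not tested.

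Against D6, a fitted fold change has little meaning because D6 had 1 Tnfrsf17 count in all. The ratios were 1050 (187 to 41400) for IgE PC, 476 (85 to 18800) for IgG1 PC, 58.2 (9.94 to 2350) for IgE iGC and 7.82 (1 to 352) for IgG1 iGC. The last compares 7 counts with 1, and its call (adjusted p = 0.0257) was lost in 6 of 14 alternative settings, among them leaving out D6 replicate 2 (log2 fold change 2.10), D6 replicate 3 (2.13), IgG1 iGC replicate 1 (2.39) or IgG1 iGC replicate 3 (2.28).

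**Figure D1:**
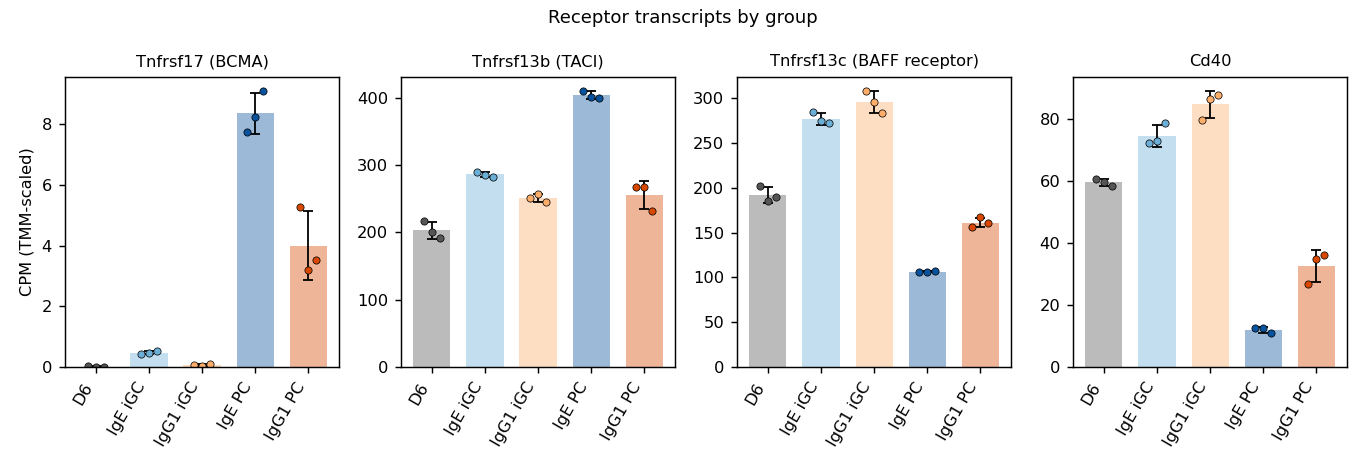
CPM of the 4 receptor transcripts in each library (points), with group means (bars) and SD (error bars, n = 3); each panel has its own linear axis from 0. Tnfrsf17 is highest in IgE PC at 7.75 to 9.10 CPM, while Tnfrsf13c and Cd40 are lowest there.

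TACI transcript was the highest of the BAFF and APRIL receptors in plasma cells by TPM. Tnfrsf13b was at 410, 401 and 399 CPM in the IgE PC libraries and at 268, 268 and 232 CPM in the IgG1 PC libraries. It was at 290, 285 and 283 CPM in IgE iGC, 251, 257 and 245 CPM in IgG1 iGC and 217, 201 and 191 CPM in D6. The IgE PC libraries were above all others, and the IgG1 PC and IgG1 iGC libraries overlapped.

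Tnfrsf13b was higher in IgE PC than in IgG1 PC by 0.66 on the log2 scale (SE 0.062, adjusted p = 3.48e-07), and this held in direction and call in all 14 alternative settings, between 0.41 and 0.70. The value from IgE iGC to IgE PC was 0.49 (SE 0.061, adjusted p = 3.3e-06) with TMM scaling, 0.025 (adjusted p = 0.719) with scaling to total counts and -0.22 (adjusted p = 0.0124) with limma on log2(TPM + 1). From IgG1 iGC to IgG1 PC it was 0.029 (SE 0.061, adjusted p = 0.708), -0.21 (adjusted p = 0.00701) and -0.52 (adjusted p = 1.67e-05) under the same scalings. The direction of the plasma cell step of Tnfrsf13b therefore depends on the scaling. Scaling to total counts moved the median of all genes from -0.08 to -0.55 in the IgE step and from 0.01 to -0.22 in the IgG1 step. With totals that leave out immunoglobulin genes, an alternative chosen after seeing the data, Tnfrsf13b gave 0.33 (adjusted p = 9.86e-05) in IgE and 0.054 (adjusted p = 0.435) in IgG1. The IgE step exceeded the IgG1 step by 0.47 (SE 0.087, adjusted p = 0.000555).

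BAFF receptor transcript was lower in plasma cells of both isotypes. Tnfrsf13c was at 106, 106 and 107 CPM in the IgE PC libraries and 156, 167 and 161 CPM in the IgG1 PC libraries. The iGC libraries held 284, 274 and 272 CPM (IgE) and 308, 296 and 283 CPM (IgG1), and D6 held 202, 185 and 189 CPM. The 3 IgE PC libraries were below all others, IgG1 PC was next, and the ranges of both iGC groups overlapped. Tnfrsf13c fell by 1.38 on the log2 scale from iGC to PC in IgE (SE 0.052, adjusted p = 2.79e-12) and fell by 0.87 in IgG1 (SE 0.051, adjusted p = 1.34e-09). The fall was larger in IgE by a difference of -0.51 (SE 0.072, adjusted p = 6.18e-05), and IgE PC was below IgG1 PC by a log2 difference of -0.60 (SE 0.052, adjusted p = 1.35e-07). The isotypes were not distinguished in iGC cells (-0.094, adjusted p = 0.431).

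CD40 transcript, which lies on the plus strand of chr2:165055627-165072948, showed the largest fall among the receptors. Cd40 was at 12.6, 12.6 and 10.9 CPM in IgE PC and 26.6, 35.0 and 36.1 CPM in IgG1 PC. It was at 72.2, 73.0 and 78.8 CPM in IgE iGC, 79.8, 86.6 and 87.8 CPM in IgG1 iGC and 60.5, 59.9 and 58.3 CPM in D6. No neighbouring groups overlapped. Cd40 fell by 2.63 on the log2 scale from iGC to PC in IgE (SE 0.10, adjusted p = 2.85e-12) and fell by 1.37 in IgG1 (SE 0.091, adjusted p = 5.98e-09), and the steps differed by -1.26 (SE 0.13, adjusted p = 3.44e-06). IgE PC was below IgG1 PC by a log2 difference of -1.44 (SE 0.099, adjusted p = 1.22e-08). In iGC cells the isotype difference of -0.18 (adjusted p = 0.359) did not pass the test.

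Tnfrsf13b, Tnfrsf13c and Cd40 were higher in the sorted iGC cells than in D6. In IgE iGC, Tnfrsf13b rose by 0.50, Tnfrsf13c by 0.53 and Cd40 by 0.32 on the log2 scale (adjusted p = 3.43e-06, 2.14e-07 and 0.00454). In IgG1 iGC the same genes rose by 0.31, 0.62 and 0.51 (adjusted p = 0.000396, 3.56e-08 and 0.000115). The Cd40 call in IgE iGC was lost with scaling to total counts (0.26, adjusted p = 0.0545) and with limma on log2(TPM + 1) (0.20, adjusted p = 0.293). The summed B cell markers were 5070 to 5380 CPM in D6 and 10400 to 10900 CPM in the iGC libraries, and the summed fibroblast markers were 534 to 829 CPM and 52.7 to 106 CPM. The part of this change in cell makeup in the receptor values was not tested. These comparisons share the 3 D6 libraries.

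TPM, which accounts for gene length, allows the receptors to be set side by side. In IgE PC the mean levels were 169.3 TPM for Tnfrsf13b, 54.26 TPM for Tnfrsf13c, 10.6 TPM for Tnfrsf17 and 9.81 TPM for Cd40. In IgG1 PC they were 125.0, 91.92, 5.543 and 31.32 TPM in the same order. Cd40 was thus above Tnfrsf17 in IgG1 PC, where the lowest Cd40 value was 20.79 TPM, while in IgE PC both genes lay between 8.51 and 11.12 TPM and overlapped.

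Of the summed TPM of the BAFF and APRIL receptors, Tnfrsf13b made up 72.3% ± 0.729 (SD, n = 3) in IgE PC and 56.3% ± 1.07 in IgG1 PC, against 45.5% ± 0.775 in IgE iGC, 41.3% ± 0.389 in IgG1 iGC and 46.5% ± 0.923 in D6. Tnfrsf13c held the complementary share, 23.2% ± 0.325 in IgE PC, 41.2% ± 1.72 in IgG1 PC and 53.5% to 58.7% on average in the other groups. Tnfrsf17 reached 4.54% ± 0.405 in IgE PC and 2.54% ± 0.682 in IgG1 PC, against 0.232% ± 0.0256 in IgE iGC and 0.0317% ± 0.0164 in IgG1 iGC. In each of the 4 comparisons among sorted groups the Tnfrsf17 shares did not overlap, and the two-sided exact permutation test gave p = 0.1 (adjusted p = 0.1), the smallest value 3 against 3 allows. The summed level was 223.6 to 240.1 TPM in IgE PC and 194.4 to 243.1 TPM in IgG1 PC, below the 327.8 to 443.0 TPM of the other libraries. Against D6 this order depends on the scaling and is not kept by CPM with TMM factors. On that scale Tnfrsf13b averaged 403.4 in IgE PC and 256.0 in IgG1 PC against 203.0 in D6. Tnfrsf13c averaged 106.4 and 161.2 CPM in the PC groups against 191.9 in D6.

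**Figure D2:**
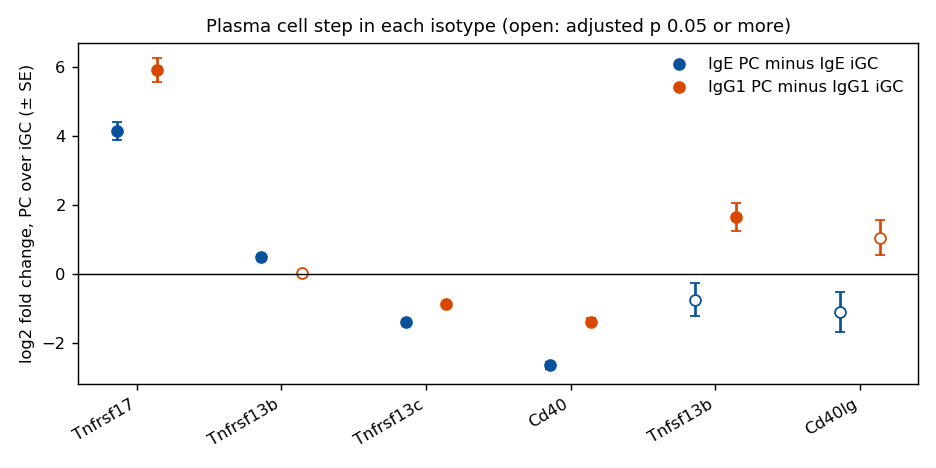
Log2 fold change from iGC to PC for the 6 tested genes in IgE and IgG1, with SE from edgeR; filled points have an adjusted p under 0.05 and open points do not. Tnfrsf17 lies far above 0 and Tnfrsf13c and Cd40 below it in both isotypes, while the ligand genes take opposite signs.

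The number of members called has to be read against the share of all genes called. In IgE PC against IgG1 PC, 6 of 6 tested members passed (2 higher, 4 lower), where 58.1% of all genes did (27.4% higher and 30.7% lower). In IgE iGC against IgG1 iGC, 1 of 6 passed, against 3.87% of all genes. From iGC to PC, 4 of 6 passed in IgE (2 higher, 2 lower), against 64.1% of all genes (30.5% higher, 33.6% lower). In IgG1 the count was also 4 of 6 (2 higher, 2 lower), against 59.1% (30.1% higher, 29.0% lower). The steps differed between isotypes for 6 of 6 members (1 higher, 5 lower), against 42.9% of all genes (19.8% higher, 23.1% lower). Against D6, 6 of 6 passed in each sorted group, where 69.1% (IgE iGC), 68.4% (IgG1 iGC), 76.4% (IgE PC) and 71.9% (IgG1 PC) of all genes passed. Outside the iGC comparison, a large share of all genes passed, so a member count near its background carries no weight of its own.

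BAFF transcript was highest in the bulk day 6 culture. Tnfsf13b, on the plus strand of chr8:10006467-10039072, was at 19.4, 29.6 and 31.3 CPM in D6 and at 12.2, 3.36 and 4.94 CPM in IgG1 PC. It was at 2.55, 3.17 and 1.76 CPM in IgE iGC, 1.86, 2.71 and 1.74 CPM in IgG1 iGC and 1.83, 1.55 and 1.22 CPM in IgE PC. The D6 and IgG1 PC ranges stood above the rest, and the other 3 groups overlapped in order. Tnfsf13b was lower in every sorted group than in D6, by log2 differences of -3.38 (IgE iGC), -3.66 (IgG1 iGC), -4.11 (IgE PC) and -2.01 (IgG1 PC, adjusted p = 0.000252).

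Among sorted cells, Tnfsf13b rose from IgG1 iGC to IgG1 PC by 1.66 on the log2 scale (SE 0.41, adjusted p = 0.00369), and IgE PC was below IgG1 PC by a difference of -2.10 (SE 0.44, adjusted p = 0.00104). The IgE step was -0.73 (SE 0.47, adjusted p = 0.197), and the steps differed by -2.38 (SE 0.63, adjusted p = 0.0078). Fibroblast markers moved with these values. The 24 markers, collagens and other matrix genes, summed to 534 to 829 CPM in D6, 101 to 268 CPM in IgG1 PC, 79.6 to 106 CPM in IgE iGC, 52.7 to 94.6 CPM in IgG1 iGC and 34.0 to 53.9 CPM in IgE PC, with 1 to 3 of them at 0 in each library. From IgG1 iGC to IgG1 PC, 16 of 21 tested markers were higher and 0 lower, with a median log2 fold change of 1.77. In IgE PC against IgG1 PC, 18 of 21 were lower, with a median of -1.97.

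Per 1000 fibroblast marker counts, Tnfsf13b had 37.0 ± 0.764 counts in D6 (SD, n = 3), 33.0 ± 3.38 in IgE PC, 32.6 ± 13.4 in IgG1 PC, 32.1 ± 3.35 in IgG1 iGC and 27.9 ± 5.25 in IgE iGC. The group means differed by at most 1.33-fold from D6, while the CPM means ranged from 1.532 (IgE PC) to 26.75 (D6). The IgG1 PC libraries spread most, with 45.6, 33.3 and 18.8 counts per 1000. The part of feeder RNA in the Tnfsf13b differences was not tested beyond these ratios.

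**Figure D3:**
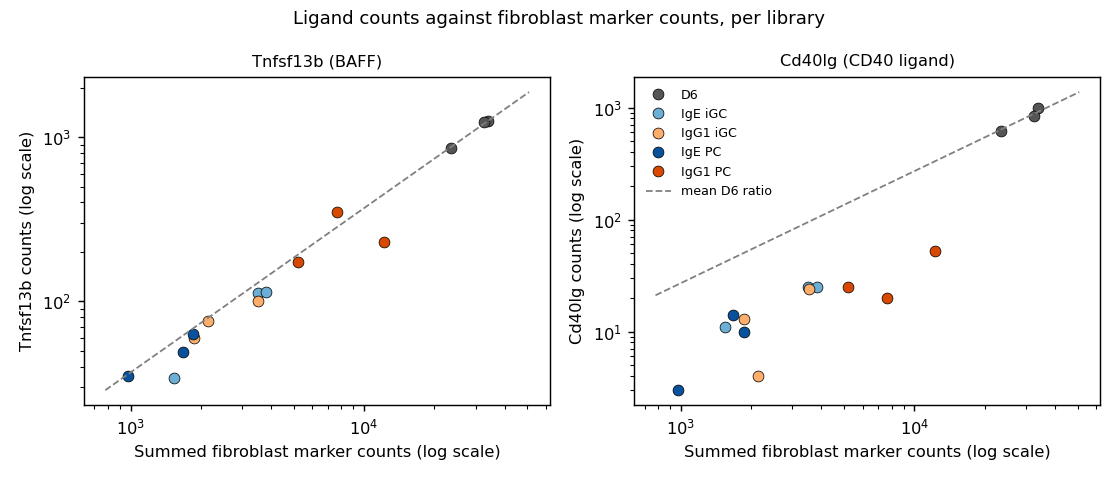
Counts of Tnfsf13b (left) and Cd40lg (right) against summed counts of 24 fibroblast markers in each library, both axes on a log scale; the dashed line is the mean D6 ratio. Tnfsf13b scatters around or below the line, at 18.8 to 45.6 counts per 1000 in all libraries, and Cd40lg lies below it in all 12 sorted libraries.

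CD40 ligand transcript stood further above the sorted groups in D6 than BAFF transcript did. Cd40lg, on the plus strand of chrX:57212143-57224042, was at 13.9, 23.5 and 21.5 CPM in D6 from 613, 991 and 848 counts. The sorted libraries held 3 to 52 counts each, or 0.0981 to 1.12 CPM, and the 4 sorted groups overlapped with their neighbours in order. Relative to D6, Cd40lg was lower by log2 differences of -4.99 in IgE iGC (adjusted p = 4.85e-08), -5.73 in IgG1 iGC (adjusted p = 1.95e-08), -6.10 in IgE PC and -4.67 in IgG1 PC.

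Cd40lg did not keep the D6 ratio to the fibroblast markers. It had 27.1 ± 1.82 counts per 1000 marker counts in D6 (SD, n = 3), 6.94 ± 0.344 in IgE iGC, 5.61 ± 2.65 in IgE PC, 5.20 ± 2.90 in IgG1 iGC and 3.89 ± 1.14 in IgG1 PC, which is 3.9 to 6.97-fold below D6. No sorted library reached the lowest D6 ratio of 26.0, the highest being 8.36. Tnfsf13b counts per Cd40lg count were 1.26 to 1.46 in D6 and 3.09 to 19.0 in the sorted libraries. T cell markers other than Cd28 and Cd247 were at 0 to 32 counts summed per gene and group, and Cd3e was at 0 in D6.

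Between sorted groups the Cd40lg differences were unstable. IgE PC was below IgG1 PC by a difference of -1.43 (SE 0.54, adjusted p = 0.0351), from 10, 14 and 3 counts against 20, 25 and 52, and the steps differed by -2.16 (SE 0.76, adjusted p = 0.0332). The first call was lost in 7 of 14 alternative settings, including leaving out IgE PC replicate 1 (-1.44), IgE PC replicate 3 (-1.06), IgG1 PC replicate 1 (-1.47) or IgG1 PC replicate 3 (-1.0), and the second in 11 of 20, given in the closing section. The steps themselves did not pass the test in IgE (-1.10, adjusted p = 0.11) or IgG1 (1.06, adjusted p = 0.0807).

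**Figure D4:**
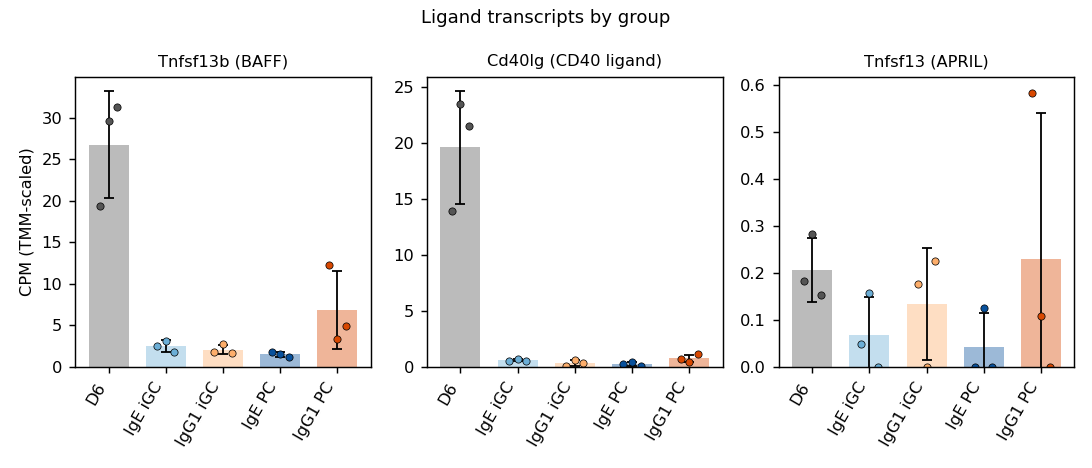
CPM of the 3 ligand transcripts in each library (points), with group means (bars) and SD (error bars, n = 3); each panel has its own linear axis from 0. Tnfsf13b and Cd40lg are highest in D6, and Tnfsf13 stays below 1 CPM in every library.

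APRIL transcript was near the limit of counting. Tnfsf13, on the minus strand of chr11:69682846-69685784, had 0 to 16.67 expected counts per library and did not pass the count filter, so it has no test. In the annotation it overlaps Tnfsfm13 (chr11:69682577-69696098), a read-through gene that joins it to Tnfsf12 (TWEAK, chr11:69686250-69695849), all on the same strand. Its counts were fractional in 9 libraries, while the sum of the 3 genes was whole, within 0.02, in all 15. That sum was 20, 25 and 31 counts in D6, 20, 17.01 and 30 in IgG1 PC, 16, 16 and 14 in IgG1 iGC, 5, 9 and 8 in IgE iGC and 7, 4 and 2 in IgE PC. How the reads divide between APRIL and its neighbours is uncertain at this depth.

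The genes downstream of these receptors, 28 TRAF adaptors, kinases, NF-kB subunits and inhibitors, were mostly lower in plasma cells. From iGC to PC, 7 rose and 17 fell in IgE (median log2 fold change -0.45, against -0.078 for all genes tested), and 2 rose and 19 fell in IgG1 (median -0.43, against 0.013). Of all genes tested, 30.5% rose and 33.6% fell in IgE, and 30.1% rose and 29.0% fell in IgG1. In IgE the falls included Traf1, an adaptor induced by NF-kB (-1.97), Rel, an NF-kB subunit (-1.76), and Nfkbie, an inhibitor of NF-kB (-1.64). The rises there included the kinase Chuk (IKK alpha, 0.94) and the deubiquitinase Cyld (0.79), while Map3k1 gave 0.71 with TMM and -0.083 with limma on log2(TPM + 1). In IgG1, Rel (-1.26), Traf1 (-0.96) and the TRAF-binding gene Tank (-0.95) fell. The 2 rises there, Nfkbib (0.33) and Myd88 (0.27), had the opposite sign with limma on log2(TPM + 1).

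Between the plasma cell groups, genes of this list differed in both directions. Nfkb2, the precursor subunit of the noncanonical arm that BAFF receptor and CD40 engage, averaged 115.1 ± 8.18 CPM in IgE PC against 209.9 ± 28.81 CPM in IgG1 PC (SD, n = 3), a log2 difference of -0.87. Traf1 (-1.38) and Nfkbie (-1.15) were also lower in IgE PC, and Chuk (0.96), Cyld (0.73) and the adaptor Traf6 (0.70) were higher. Of the 28 in the list, 10 were higher and 13 lower (median -0.069, against -0.052 for all genes, of which 27.4% were higher and 30.7% lower).

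The list of genes that process or present the ligands and receptors holds proteases such as furin and ADAM10, the gamma-secretase subunits that shed BCMA, and heparan sulfate genes, whose products bind APRIL. In IgE, 11 of 16 tested genes rose and 3 fell (median 0.35, against -0.078 for all genes, of which 30.5% rose and 33.6% fell). In IgG1, 7 rose and 4 fell (median 0.076, against 0.013 for all genes, of which 30.1% rose and 29.0% fell). Sdc1, the plasma cell syndecan, rose by 7.21 in IgE and 6.92 in IgG1, and Ext1, a heparan sulfate polymerase, by 2.21 and 1.46. The falls were Rhbdf2 (-0.75), Psen2 (-0.70) and Ndst1 (-0.42) in IgE, and included Rhbdf2 (-1.08), Psen2 (-0.43) and Adam17 (-0.24) in IgG1. Between PC groups, 10 were higher and 2 lower in IgE (median 0.23), against 27.4% of all genes higher and 30.7% lower (median -0.052). They included Sdc1 (0.94), Ext1 (0.61) and Adam10 (0.61) above and Ndst1 (-0.29) below.

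Genes known to respond to CD40 or BAFF signals moved in both directions. From iGC to PC, 10 of 29 tested rose and 17 fell in IgE (median -0.97, against -0.078 for all genes). In IgG1, 9 rose and 17 fell (median -0.54, against 0.013). Of all genes, 30.5% rose and 33.6% fell in IgE, and 30.1% rose and 29.0% fell in IgG1. Irf4, a plasma cell transcription factor, rose by 4.49 in IgE and 3.86 in IgG1, and the survival kinases Pim1 (2.18 and 1.94) and Pim2 (1.82 and 2.20) rose in both. In IgE, Icosl, a costimulatory ligand (-4.59), and Lta, a TNF family cytokine (-4.25), fell. In IgG1, Cr2, a complement receptor (-2.32), and Icosl (-2.20) fell.

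Between the plasma cell groups, 20 of 29 response genes were lower in IgE and 7 higher (median -0.70), against 30.7% of all genes lower and 27.4% higher (median -0.052). The summed levels of germinal centre and B cell markers were also lower in IgE PC. The former summed to 82.1 to 83.7 CPM against 118 to 171 CPM in IgG1 PC, and the latter to 4580 to 4770 CPM against 5590 to 6100 CPM. The B cell markers did not move together. Pax5, a B cell transcription factor, had a log2 difference of -1.16, while Ms4a1, Cd79b and Ptprc were nearly level between the PC groups. The part of these marker differences in the response genes, or in Cd40 and Tnfrsf13c, was not tested. Ccl22, a chemokine induced by CD40, averaged 6.182 ± 0.582 CPM in IgE PC against 235.9 ± 77.97 CPM in IgG1 PC (SD, n = 3), a log2 difference of -5.26. Lta (-2.69) was also lower, and the survival genes Bcl2 (1.21) and Cflar (0.93) and Irf4 (0.74) were higher. Bcl2 averaged 222.4 ± 13.83 CPM in IgE PC against 96.41 ± 9.804 CPM in IgG1 PC.

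Of 32 tested genes for other TNF ligands and receptors, 3 rose and 18 fell in the IgE step (median -0.87), and 7 rose and 11 fell in the IgG1 step (median 0.017). Among all genes, 30.5% rose and 33.6% fell in the IgE step, and 30.1% rose and 29.0% fell in the IgG1 step. Tnf (-3.64) and Ltb, lymphotoxin beta (-1.99), fell in IgE, and fell by less in IgG1 (-1.53 and -1.34). Tnfrsf18 (GITR) gave 0.50 in the IgE step with TMM and -0.23 with limma on log2(TPM + 1). Between PC groups, 2 were higher and 21 lower in IgE (median -1.02), against 27.4% of all genes higher and 30.7% lower (median -0.052). The differences were -2.51 for Tnf, -1.51 for Tnfrsf8 (CD30) and 0.33 for Tnfrsf18. Fibroblast markers were lower in the same comparison (18 of 21, median -1.97). Some of the family genes, chosen after their values were seen, were highest in D6 and lower in IgE PC than in IgG1 PC. They were Ltbr (-2.87), Tnfrsf1a (-1.94), Tnfrsf12a (-1.38) and Eda2r (-0.98). Not all PC were low, since Ltbr averaged 2.527 CPM in IgG1 PC against 1.012 in IgE iGC and 0.3337 in IgE PC. The part of feeder RNA in this count was not tested. Fas, Lta, Ltb and Tnf belong to both of the last lists. Between the iGC groups, 3 of 28 signalling genes (10.7%) and 6 of 29 response genes (20.7%) passed. The counts were 0 of 16 for processing and 2 of 32 (6.25%) for family genes, against 3.87% of all genes. All list genes called there were lower in IgE.

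**Figure D5:**
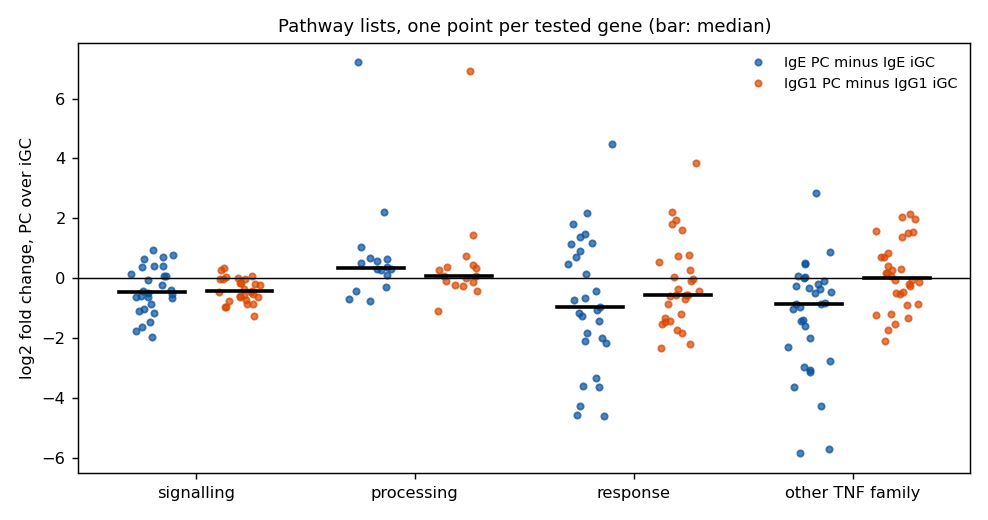
Log2 fold change from iGC to PC for each tested gene of the 4 pathway lists in IgE and IgG1, with the median as a bar. Signalling and response medians lie below 0 in both isotypes, and Sdc1 is the highest point of the processing list.

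For each tested member, the genes with the most similar pattern over the 15 libraries, by Pearson r of log2 CPM, are given as a description. Tnfrsf17 was most like Endou (0.993), Slco4a1 (0.992) and Slc25a23 (0.988). Tnfrsf13b was most like Xk (0.989), Rchy1 (0.985) and Slc30a5 (0.98), and Tnfrsf13c was most like Ppp1r18 (0.993), Grb2 (0.993) and Tomm34 (0.991). Among the genes most like Cd40 were Rras2 (0.995) and Fgd2 (0.994). Tnfsf13b was most like Flnc (0.989), Cavin1 (0.989) and Amotl2 (0.983), and Cd40lg like Kitl (0.984), Eda2r (0.981) and Itpripl2 (0.978). Of the 18 genes that the rule chose, 0 were also among the 3 most alike by Spearman rank, and libraries of a group share their condition.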

How the data were processed

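RNA-seq of polyA RNA was analysed from the deposited gene table, which holds 15 libraries. The expected counts deposited by the authors are RSEM estimates per gene, per the file headers, and were rounded to whole numbers for testing. The TPM values deposited by the authors are scaled for effective length and library total, per the file headers. The submitters' processing notes name cutadapt 1.9.1, STAR 2.5.2a, RSEM 1.3.0, DESeq2 1.12.3 and GRCm38, with no role or order, and the annotation release is not given in the sources used here. The libraries are strand-specific per the labels' protocols; whether counting used strand is not given.

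Groups came from the sample titles. Genes passing filterByExpr (minimum count 10, total 15; 15692 genes) were fitted together with edgeR 4.0.16 (R 4.3.3; TMM, robust quasi-likelihood, 5 group means, 10 residual degrees of freedom) and Benjamini-Hochberg adjustment. DESeq2 1.42.0, limma 3.58.1 on log2(TPM + 1), other scalings, no filter, a replicate block and leaving out each replicate were alternatives. Receptor shares used scipy 1.17.1. Positions are from GENCODE vM21, on the same build as the files.

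The members and gene lists were chosen with earlier results of these data known. The lists hold signalling, processing, response and TNF family genes and cell type markers (fibroblast, T cell, myeloid, B cell, plasma cell, germinal centre). Named list genes are the up to 3 largest rises and falls per list and comparison among those past the threshold with a group mean of at least 10 CPM; some genes this rule names are not reported here. One signalling symbol was not matched. Of the 22 myeloid markers, 6 to 12 were at 0 in each library, and their summed level was 30.0 to 142 CPM. The labels do not say whether same-numbered libraries share an animal or culture. Same-numbered libraries did not deviate together (30 pairs, r from -0.195 to 0.0908), which cannot exclude a shared origin. The main fit used no pairing. No library was dropped, and p-values measure the spread between these biological replicates.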

Additional observations from a re-analysis of the deposited data

Results flagged for a closer look

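The step from iGC to PC differed between IgE and IgG1 in edgeR's interaction test (log2, IgE step minus IgG1 step; adjusted p under 0.05 with Benjamini-Hochberg) for all 6 tested members. The differences were -1.77 for Tnfrsf17, 0.47 for Tnfrsf13b, -0.51 for Tnfrsf13c, -1.26 for Cd40, -2.38 for Tnfsf13b and -2.16 for Cd40lg. The last 2 moved alongside fibroblast markers, whose median difference was -2.51 (16 of 21 lower), and their part was not tested.

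Among signalling genes, the IgE step was higher for Chuk (0.95), Cyld (0.72) and Map3k1 (0.71) and lower for Traf1 (-1.02), Nfkbie (-0.80) and Nfkb2 (-0.70). Among processing genes it was higher for Ext1 (0.75), Adam10 (0.62) and Hs2st1 (0.60) and lower for Ndst1 (-0.29). Among response genes it was higher for Cflar (1.20), Bcl2 (1.02) and Irf4 (0.64) and lower for Ccl22 (-3.49) and Lta (-2.55). In the TNF family it was higher for Tnfrsf18 (0.41) and lower for Tnf (-2.11) and Ltb (-0.65). Genes of this kind were common, since 42.9% of all genes tested passed the same test.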

How the results depend on the processing

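Of 54 member results, 40 kept their direction and side of the threshold under every alternative run (744 of 792 alternative values; 29 lost the call, 12 gained it, 7 changed sign). For Tnfrsf13b, the IgE step was 0.025 with total-count scaling and -0.22 with limma on log2(TPM + 1), the IgG1 step -0.21 and -0.52, and IgG1 PC against D6 0.05 and -0.33, with IgE PC against D6 at 0.10 under limma. Leaving out a replicate gave -0.021 to 0.092 for the IgG1 step, below 0 without IgG1 PC replicate 1 (-0.006) or 2 (-0.021). Cd40 in IgE iGC against D6 was 0.26 with total counts and 0.20 with limma. The isotype difference in iGC passed for Tnfrsf13b with DESeq2 (0.20) and with only the groups compared (0.18), and for Cd40 with the latter (-0.19).

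Cd40lg in IgE PC against IgG1 PC lost its call without a filter (-1.43), with only the groups compared (-1.42) and with limma (-0.45), and ranged from -1.89 to -1.0 with a replicate left out. Its interaction lost the call in the same settings (-2.17, -2.16, -0.75) and without IgE iGC replicate 1 (-2.23) or 2 (-2.05), IgE PC replicate 1 (-2.18) or 3 (-1.78), IgG1 iGC replicate 1 (-1.68) or 3 (-2.18), or IgG1 PC replicate 1 (-2.21) or 3 (-1.74), within a range of -2.84 to -1.68. Its IgE step passed with DESeq2 (-1.10), total counts (-1.56) and limma (-0.57), and its IgG1 step with DESeq2 (1.03) and without IgG1 iGC or IgG1 PC replicate 2 (range 0.57 to 1.73). The Tnfsf13b IgE step passed with total counts (-1.20), only the groups compared (-0.69) and limma (-0.96). Tnfrsf17 in IgG1 iGC against D6 lost its call with only the groups compared (2.60) and limma (0.16), with 2.10 to 4.27 when a replicate was left out, and its interaction was 0.013 with limma. The causes were not tested.

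Genes called between iGC groups numbered 607, against 937 with DESeq2, 1435 with only the groups compared and 323 to 403 with a replicate left out; the interaction called 6733, against 4354 with limma. The Tnfrsf17 share differences from CPM were 0.664, 0.0726, 1.53 and 0.939 percentage points (IgE PC against IgG1 PC, IgE iGC against IgG1 iGC, and the IgE and IgG1 steps), against 1.99, 0.20, 4.30 and 2.51 from TPM, and 0.161 between iGC groups with Cd40 in the denominator. With limma, Map3k1 (-0.083) and Tnfrsf18 (-0.23) in the IgE step and Nfkbib (-0.28) and Myd88 (-0.32) in the IgG1 step changed sign. The replicate block changed 0 member calls, with Tnfrsf17 in IgE PC against IgG1 PC at 1.09 (adjusted p = 0.000825, edgeR). Depth limits Tnfrsf17 in iGC and D6, Cd40lg in sorted cells and Tnfsf13 everywhere.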
